A study of Mus musculus with 11 samples.

Results

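The genes described here are 36 mouse genes that fold, sort and dispose of proteins in the endoplasmic reticulum (ER), or that sense trouble there, measured by RNA-seq in primary granulosa cells after knockdown of Akt1. Members were taken by gene symbol from the deposited count files, and all 36 of 36 were found once among 24490 genes. They comprised 4 sensor and transducer genes, 11 chaperone and cochaperone genes, 6 disulfide and prolyl isomerase genes, 10 genes of ER-associated degradation and 5 genes of the translocon and ER membrane. All 36 passed the low-count filter of each edgeR fit with scramble libraries.

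The ER folds secreted and membrane proteins with the help of chaperones that bind unfolded chains and enzymes that form and shuffle disulfide bonds. When unfolded proteins build up, the sensors IRE1 (gene Ern1), PERK (Eif2ak3) and ATF6 start the unfolded protein response, in which IRE1 splices Xbp1 mRNA and the resulting factor, with ATF6, raises chaperone and degradation genes. Granulosa cells secrete inhibin, activin and matrix proteins, all of which pass through this compartment.

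The cells were primary ovarian granulosa cells of RjOrl:SWISS mice lipofected with siRNA (30 pmol). The transfection mix was taken off after 5 h, cells grew for a further 25 h, and RNA was collected at 30 h. Scramble, a nontargeting siRNA, gave 3 libraries, and 4 pools against Akt1, each holding 3 of 4 siRNAs, gave 2 libraries each. Pool 1 had no siRNA 9, pool 2 no siRNA 7, pool 3 no siRNA 8 and pool 4 no siRNA 6, if the pool numbers of the protocol and of the sample titles are the same, which is assumed here. All groups went through lipofection with siRNA, and no untreated cells were analysed here. Whether the libraries of a group came from separate cultures is not in the labels. The p-values then reflect no more than the spread among these libraries, which may be technical. In bulk RNA, fewer cells that express a gene and less of its mRNA per cell cannot be told apart. Levels are in CPM, the usual unit of counts scaled to the reads a library has in genes, without spike-in rows.

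A short element known from this pathway, the ER stress response element (ERSE), marks many of these genes at their start sites. It was searched as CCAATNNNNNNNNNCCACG on both strands of the RefSeq promoter windows (GRCm38.p6, 250 bases before to 50 after the start), which were matched for 31 of the 36 members and not for Atf6, Hyou1, Manf, Derl1 and Sec61a1. The letters were found in 9 of 31 members (29.0%) and in 0.119% of 32851 promoters of the same length. A member counted if any of its windows matched, while the shares of all promoters, here and below, count single windows. A related form, ERSE-II (ATTGGNCCACG), was found in 2 of 31 members (6.45%) and in 0.0365% of all promoters. The windows of 3 chaperone genes, 1 cochaperone gene and 2 degradation genes are shown because the matches span the roles described here. Capitals mark the matched letters, which read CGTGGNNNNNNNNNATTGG where the element lies on the other strand, and each sequence is given on the strand of its gene.
Hspa5, chr2:34772020-34772048, plus strand: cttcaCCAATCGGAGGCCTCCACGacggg
Hsp90b1, chr10:86705633-86705661, minus strand: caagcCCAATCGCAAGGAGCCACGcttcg
Calr, chr8:84847070-84847098, minus strand: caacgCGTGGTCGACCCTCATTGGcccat
Dnajc3, chr14:118937822-118937850, plus strand: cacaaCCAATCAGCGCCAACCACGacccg
Derl3, chr10:75893237-75893265, plus strand: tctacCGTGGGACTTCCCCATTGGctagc
Herpud1 (ERSE-II), chr8:94386372-94386392, plus strand: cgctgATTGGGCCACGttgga
The other members with ERSE were Canx, Creld2, Pdia6 and Syvn1, and Dnajb11 was the other with ERSE-II. A match describes these letters in this window and is not evidence of a factor bound there.

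Libraries held 23851293 to 32643158 reads in genes. Akt1 was at 529, 428 and 399 CPM in scramble and at 52.7 to 81.7 CPM over the 8 pool libraries (log2 −2.87 ± 0.13 SE, edgeR adjusted p = 4.41e-07). Scramble replicate 1 stood apart: its median correlation of log2 CPM with the other libraries was 0.948, against 0.9896 or more for each of the others, and short transcripts were high and long ones low in it. Differences over all pools are therefore given, for most members, with all 11 libraries and with the 10 left without it. In single pools against scramble, the 11-library edgeR fit called members among 8 genes only (Pdia4, Ppib, Derl3, Hyou1, Calr, Edem2, P4hb and Ssr1). Calls of other members in single pools, where named below, come from the 10-library fit. Of these, Xbp1 (pools 1, 3 and 4), Hsp90b1 and Pdia3 (pool 3) and Sec61a1 (pools 3 and 4) passed in 2 of 17 settings. Granulosa cell markers summed to 4636 to 5301 CPM in scramble and 2731 to 4514 CPM in the pools. The transcription factor gene Foxl2 was at 112 to 203 CPM and the inhibin gene Inha at 1241 to 3486 CPM, while the FSH receptor gene Fshr was at or below 0.367 CPM, Amh below 1 CPM and the aromatase gene Cyp19a1 at 1.82 to 3.22 CPM. Among plasma cell markers, a cell type rich in these ER proteins, 6 of 8 were below 1 CPM in every library. Of the others, Sdc1 was at 168 to 186 CPM in scramble and 137 to 187 CPM in the pools, and Prdm1 at 2.14 CPM or less. Levels below 1 CPM in every library also held for 7 of 9 oocyte, 6 of 10 immune, 3 of 7 endothelial and 3 of 10 theca and stroma markers, and for 0 of 8 surface epithelium markers. Acta2, a smooth muscle and stromal actin, was at 1581 to 3032 CPM in scramble.

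Per kilobase of transcript, several ER chaperone and disulfide isomerase genes were among the highest genes of these cells. Hsp90b1 led at 614 and 673 CPM per kb in scramble replicates 2 and 3, followed by Calr at 590 and 607, and these neighbours did not overlap in that pair but did so once scramble replicate 1 was counted (766 and 886). Pdia3 (455 and 477), P4hb (416 and 415) and Hspa5 (395 and 418) came next, with P4hb and Hspa5 overlapping. Of the genes tested, 99.8% had a lower level per kb than Hsp90b1, but only 64.9% a lower level than the chaperone gene Dnajb9. Of the sensors, Xbp1 was 14th of the 36 members at 82.5 and 82.4 CPM per kb, and the other sensors were further down, with Atf6 at 32.1 and 32.0, Ern1 at 13.1 and 12.3 and Eif2ak3 at 10.4 and 10.1. Derl3, a degradation gene known for its expression in secretory cells, was last at 6.00 and 5.36 CPM per kb.

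Across all pools, ER folding genes were mostly a little lower than in scramble, and none passed the test over all genes with 11 libraries. Their median log2 fold change was −0.27, against −0.02 over 13989 genes tested, and 27 of 36 were below 0. EdgeR called 0 of 36 members, where it called 0.00715% of all genes, and 24 members had an unadjusted p below 0.05. Counts by unadjusted p, here and below, come without the share of all genes at that threshold, so by themselves they show no excess. DESeq2 called 17 members lower and 0 higher (5.44% of all genes lower), and averaging the 4 pools within a fit of 5 groups gave 7 lower (4.75%). The authors' deposited table held an adjusted p for 24 members, with 12 of them lower and 0 higher at a threshold of 0.05 (5.73% of its genes lower).

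The 10-library fit called 3 members, Xbp1, P4hb and Ssr1, all lower, where 0.356% of genes were called lower. The median of the members was then −0.18, against 0.00 over all genes, and 31 of 36 were below 0. Leaving out scramble replicate 3 in place of replicate 1 gave 15 calls, a count given without the share of all genes called there. The 5-group average of the pools, again with 10 libraries, called 28 members lower and 2 higher (20.7% and 15.1% of all genes), and left Eif2ak3, Canx, Dnajb9, Derl2, Selk and Sec61b without a call. Both 5-group fits take differences between pools out of the error, which the fits with 2 groups leave in. By level alone, 16 of 36 members had all 8 pool libraries below scramble replicates 2 and 3, against 5.31% of genes, and 13 of these were also below scramble replicate 1 (2.67% of genes).

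**Figure D1:**
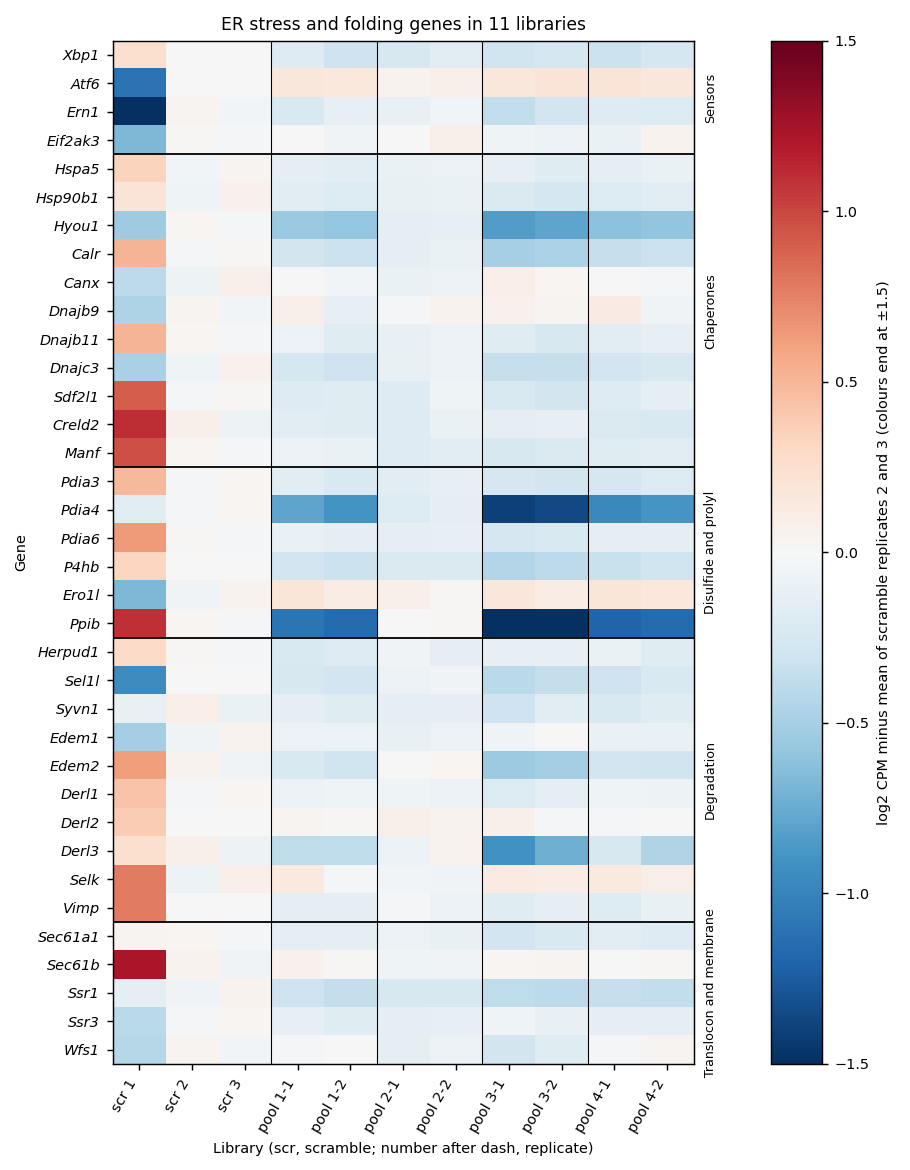
Log2 CPM of the 36 members in each of 11 libraries (columns), as the difference from the mean of scramble replicates 2 and 3, with members in rows grouped by role and colours ending at 1.5 in either direction. Here CPM were scaled by TMM with a prior count of 3, unlike CPM in the text, so small differences can change sign between them. Most rows are pale blue in the 8 pool columns, a few are deep blue in pools 1, 3 and 4 but not in pool 2, and the scramble replicate 1 column differs from every other in both directions.

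Among the sensors, Xbp1 was lower in every pool and Atf6 was higher. Xbp1 encodes the transcription factor made from IRE1-spliced mRNA, and these counts do not separate its spliced and unspliced forms. It was at 215, 176 and 176 CPM in scramble and at 145 to 160.5 CPM in the pools, with a median of 151. All 8 pool libraries lay below all 3 scramble libraries. The log2 fold change was −0.35 ± 0.07 (SE, edgeR adjusted p = 0.0985) with 11 libraries and −0.26 ± 0.05 (edgeR adjusted p = 0.0461) with 10, where the gene fell; over 22 settings the adjusted p ran from 6.87e-06 to 0.18 and passed in 9.

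Atf6 encodes the ER-bound factor that is cut in the Golgi to reach the nucleus. It was at 112, 232 and 232 CPM in scramble and at 243 to 281 CPM in the pools, with a median of 273. No pool library overlapped scramble, which was so in that direction for 6.96% of genes, and the lowest pool value was that of pool 2. The member passed in neither fit of all pools, with log2 differences of 0.43 ± 0.18 (edgeR adjusted p = 0.151) with 11 libraries and 0.14 ± 0.05 (edgeR adjusted p = 0.156) with 10. In the 10-library fit with 5 groups it rose in pool 1 (0.16 ± 0.04, edgeR adjusted p = 0.00275), pool 3 (0.17 ± 0.04, edgeR adjusted p = 0.000846) and pool 4 (0.17 ± 0.04, edgeR adjusted p = 0.00157), with 0.06 ± 0.04 in pool 2.

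Ern1, which encodes the kinase and nuclease IRE1, was at 10.7 CPM in scramble replicate 1 and at 91.1 and 85.6 CPM in replicates 2 and 3. Pool libraries ran from 72.0 to 86.0 CPM with a median of 79.9, so they overlapped the scramble range on account of replicate 1 and, narrowly, of replicate 3. Its log2 difference over all pools turned from 0.31 ± 0.43 (edgeR adjusted p = 0.625) with 11 libraries to −0.20 ± 0.07 (edgeR adjusted p = 0.19) with 10. Pool 3 was the lowest at 72.0 and 76.2 CPM, 83.9% of scramble replicates 2 and 3 (log2 −0.34 ± 0.05, edgeR adjusted p = 9.11e-06 with 10 libraries). Eif2ak3, the gene for PERK, was at 30.0, 46.8 and 45.6 CPM in scramble and at 44.7 to 49.7 CPM in the pools, with a median of 46.6. It passed in none of 22 settings, and with 10 libraries its log2 difference was −0.03 ± 0.06 over all pools.

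Hspa5 and Hsp90b1, the best known ER chaperone genes, did not pass over all pools in the 2-group edgeR fit with either set of libraries. Hspa5 encodes BiP, the chaperone that also holds the sensors inactive. It was at 1961, 1451 and 1535 CPM in scramble and at 1386 to 1444 CPM in the pools, with a median of 1399. Every pool library lay below every scramble library, with 1444 against 1451 CPM as the closest pair. The log2 difference was −0.27 ± 0.09 with 11 libraries (edgeR adjusted p = 0.111) and −0.14 ± 0.04 with 10 (edgeR adjusted p = 0.135). In the 5-group fit with 10 libraries Hspa5 fell in pools 1, 3 and 4 by 0.13 to 0.17 log2 (edgeR adjusted p = 0.00208 to 0.0173), with −0.11 ± 0.04 in pool 2 (edgeR adjusted p = 0.147). Hsp90b1, the gene for GRP94, was at 2163, 1734 and 1899.9 CPM in scramble and at 1589 to 1702 CPM in the pools, with a median of 1662. Its libraries did not overlap between scramble and pools either, and the log2 difference was −0.26 ± 0.08 with 11 libraries (edgeR adjusted p = 0.109) and −0.19 ± 0.05 with 10 (edgeR adjusted p = 0.127). In the 5-group fit with 10 libraries Hsp90b1 fell in pools 1, 3 and 4 as well. Over all pools each of these genes, Hspa5 and Hsp90b1, passed in 4 of 22 settings. In the authors' deposited table both were lower (Wald adjusted p = 0.0271 for Hspa5 and 0.0107 for Hsp90b1). Exons of Hsp90b1 share 415 bases with 1810014B01Rik on the opposite strand, which was at 5.42 CPM or less.

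Hyou1 and Calr were the chaperone genes that passed in a single pool with all 11 libraries. Hyou1 encodes GRP170, which exchanges the nucleotide of BiP. It was at 327, 464 and 448 CPM in scramble, at 323 and 319.7 (pool 1), 413 and 419.9 (pool 2), 269.8 and 278 (pool 3) and 309 and 315 (pool 4). All pool libraries lay below scramble replicates 2 and 3, pool 2 by the least, and scramble replicate 1 lay within the range of the pools. Over all pools the log2 difference was −0.36 ± 0.17 with 11 libraries and −0.52 ± 0.16 with 10. With 10 libraries Hyou1 fell in each pool, with log2 −0.57, −0.15, −0.82 and −0.61 (SE 0.04 each) in order of pool number (edgeR adjusted p = 2.96e-10, 0.0284, 3.94e-13 and 1.13e-10). With 11 it passed in pool 3 alone (log2 −0.66, edgeR adjusted p = 0.0309), a call held in 6 of 17 settings. Calr, the gene for the calcium-binding lectin calreticulin, was at 1935, 1289 and 1326 CPM in scramble and at 977 to 1219 CPM in the pools, with a median of 1090.4. No pool library reached a scramble library, and over all pools the log2 difference was −0.51 ± 0.12 with 11 libraries and −0.31 ± 0.09 with 10. Calr fell in pools 1, 3 and 4 with 10 libraries by 0.30, 0.50 and 0.34 log2, and in pool 3 with 11 (log2 −0.69 ± 0.16, edgeR adjusted p = 0.0336). Its pool 3 call held in 9 of 17 settings.

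Creld2, Manf and Sdf2l1, 3 further ER chaperone or cochaperone genes, differed in size with scramble replicate 1 in or out. Over all pools their log2 differences were −0.66, −0.58 and −0.57 with 11 libraries (edgeR adjusted p = 0.107 each), beyond that of Calr, and −0.18, −0.18 and −0.19 with 10. Dnajb11 likewise went from −0.35 to −0.15, and Dnajc3 from −0.11 to −0.26. With 10 libraries, Dnajb11, Dnajc3 and Sdf2l1 fell in pools 1, 3 and 4, Creld2 in the same 3 pools and Manf in pools 2, 3 and 4. The largest of these changes with 10 libraries was that of Dnajc3, the gene for the ER cochaperone P58IPK, by 0.36 ± 0.04 log2 in pool 3. Canx, the gene for the membrane lectin calnexin, and Dnajb9, which encodes a BiP cochaperone induced by XBP1, passed in no pool: in the 5-group fit with 10 libraries their log2 differences ran from −0.11 to 0.05. Of the 11 chaperone genes, 8, 2, 9 and 9 fell in pools 1 to 4 in that fit, where 17.0%, 2.69%, 26.1% and 17.8% of all genes were called lower, and 0 rose.

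**Figure D2:**
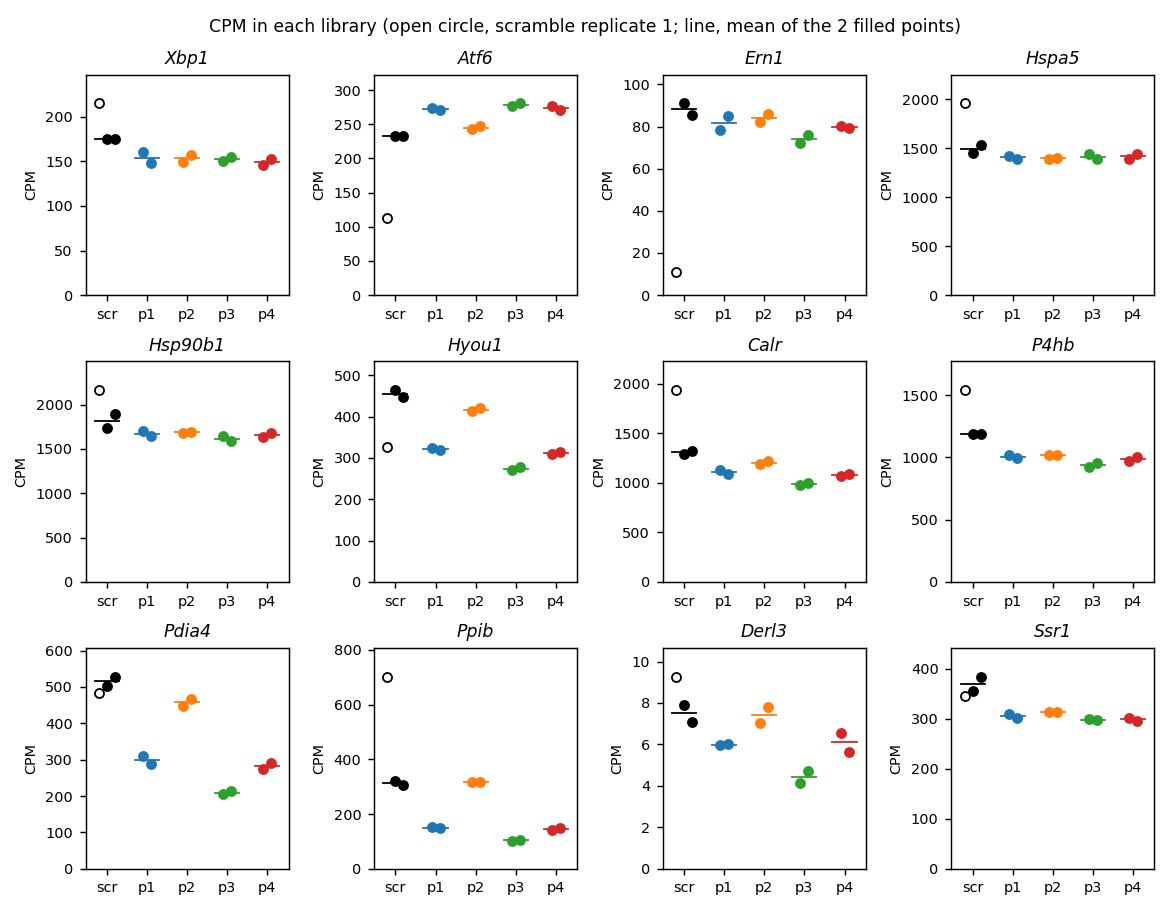
CPM (y axes, each from 0) of 12 members in each library of scramble (scr) and pools 1 to 4 (p1 to p4), with scramble replicate 1 as an open circle and lines at the mean of the 2 filled points. Pool points lie close to one another for Xbp1, Hspa5, Hsp90b1 and Ssr1, while Hyou1, Pdia4, Ppib and Derl3 are near scramble in pool 2 and lowest in pool 3.

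The disulfide and prolyl isomerase genes held the 2 members with the largest changes in single pools. Pdia4 encodes ERp72, a thiol oxidoreductase of the ER lumen, and lies at chr6:47796141-47813430 on the minus strand (GRCm38.p6, GENCODE M21). It was at 482, 504 and 527 CPM in scramble, 311 and 289 (pool 1), 447 and 467 (pool 2), 206 and 213 (pool 3) and 273 and 290.5 (pool 4). No pool library overlapped scramble, and among the pools only 1 and 4 overlapped each other. Pool 3 stood at 40.7% of scramble replicates 2 and 3 and pool 2 at 88.7%. With 11 libraries Pdia4 fell in pool 1 (log2 −0.80 ± 0.09, edgeR adjusted p = 0.00605), pool 3 (−1.33 ± 0.10, edgeR adjusted p = 0.000283) and pool 4 (−0.89 ± 0.09, edgeR adjusted p = 0.00335), with −0.14 ± 0.09 in pool 2 (edgeR adjusted p = 0.611). The call in pool 3 held in each of 17 settings, and the calls in pools 1 and 4 in 15 of 17. Scramble replicate 1 differed from the mean of the other scramble libraries by −0.10 log2 for this gene.

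Ppib encodes cyclophilin B, a prolyl isomerase that works on collagen chains, and lies at chr9:66060222-66066623 on the plus strand. It was at 701, 321 and 308 CPM in scramble, 153 and 148 (pool 1), 317 and 319 (pool 2), 101 and 106 (pool 3) and 142 and 147 (pool 4). Pool 2 lay between scramble replicates 2 and 3, and the other 6 pool libraries were below every scramble library. The value in scramble replicate 1 was 2.23 times the mean of the other scramble libraries. With 11 libraries Ppib fell in pool 3 (log2 −2.15 ± 0.33, edgeR adjusted p = 0.00615) and pool 4 (−1.65 ± 0.33, edgeR adjusted p = 0.039) and just missed the threshold in pool 1 (−1.60 ± 0.33, edgeR adjusted p = 0.0502). The call in pool 3 held in 15 of 17 settings and the call in pool 4 in 8 of 17. With 10 libraries Ppib fell in pools 1, 3 and 4 with log2 −1.13, −1.69 and −1.18 (SE 0.04 each), and pool 2 differed by 0.00 ± 0.04. Its exons share 825 bases with Snx22 on the opposite strand, which was at 0.337 CPM or less in every library.

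P4hb, the gene for protein disulfide isomerase, lies at chr11:120560298-120573253 on the minus strand and was lower in all pools. It was at 1541, 1190.1 and 1187 CPM in scramble and at 925 to 1023 CPM in the pools, with a median of 1001. The libraries did not overlap. The log2 fold change over all pools was −0.44 ± 0.09 with 11 libraries (edgeR adjusted p = 0.0855), and with 10 the gene fell by 0.32 ± 0.06 (edgeR adjusted p = 0.0438); over 22 settings the adjusted p ran from 2.23e-08 to 0.18 and passed in 9. With 10 libraries P4hb fell in each pool, with log2 −0.31, −0.23, −0.43 and −0.33 in order of pool number. Pdia3 and Pdia6, 2 further disulfide isomerase genes, also fell in each pool in that fit, by 0.13 to 0.28 log2. Over all pools they did not pass in the 2-group fit, at −0.40 and −0.42 with 11 libraries and −0.22 and −0.17 with 10. Ero1l, which encodes the oxidase that recharges protein disulfide isomerase, went the other way: it was at 46.6, 68.6 and 74.4 CPM in scramble and 72.7 to 84.7 CPM in the pools, and with 10 libraries it rose in pools 1, 3 and 4 by 0.13 to 0.16 log2 (edgeR adjusted p = 0.0167 to 0.0363). Its difference over all pools was 0.31 ± 0.12 with 11 libraries and 0.12 ± 0.05 with 10, with no call in either 2-group fit.

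Of the 10 genes of ER-associated degradation, 6, 0, 7 and 6 fell in pools 1 to 4 in the 10-library fit, beside 17.0%, 2.69%, 26.1% and 17.8% of all genes, and whether these counts differ between pools was not tested. Sel1l and Syvn1 encode the adaptor and the ubiquitin ligase of the main retrotranslocation complex. Sel1l was at 139, 257 and 259.7 CPM in scramble, 228 and 221 (pool 1), 243 and 249 (pool 2), 205 and 213 (pool 3) and 217 and 229 (pool 4). All pool libraries lay between scramble replicate 1 and the other 2 scramble libraries, so its direction over all pools depended on replicate 1. Its log2 difference was 0.00 ± 0.16 with 11 libraries and −0.25 ± 0.08 with 10, and in the latter it fell in pools 1, 3 and 4 by 0.27, 0.39 and 0.27. Syvn1 fell in the same pools by 0.17, 0.25 and 0.22 log2, and over all pools was at −0.17 with 11 libraries and −0.20 with 10.

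Edem2 and Derl3, like Pdia4, were lowest in pool 3 and highest in pool 2 among the pools. Edem2 encodes a mannosidase that marks misfolded glycoproteins. It was at 108, 69.4 and 64.8 CPM in scramble, 59.6 and 56.7 (pool 1), 67.3 and 68.6 (pool 2), 48.5 and 49.8 (pool 3) and 57.1 and 56.6 (pool 4). Pool 2 lay within scramble and the other pools below it, and Edem2 fell in pool 3 with 11 libraries (log2 −0.78 ± 0.19, edgeR adjusted p = 0.0363). That call held in 9 of 17 settings. Derl3 encodes a derlin of the retrotranslocation channel. It was at 9.25, 7.92 and 7.09 CPM in scramble, 5.97 and 6.01 (pool 1), 7.06 and 7.80 (pool 2), 4.15 and 4.70 (pool 3) and 6.57 and 5.65 (pool 4). Again pool 2 overlapped scramble and the other 6 libraries did not, and Derl3 fell in pool 3 with 11 libraries (−0.94 ± 0.15, edgeR adjusted p = 0.00638), a call held in 15 of 17 settings.

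The other degradation genes passed in no edgeR comparison with 11 libraries, and several moved by over 1.5 times or changed sign without scramble replicate 1. Herpud1, which encodes a stress-induced ER membrane protein of the ligase complex, was at 81.1, 64.7 and 63.0 CPM in scramble and 57.0 to 61.9 CPM in the pools. Its pool libraries lay below scramble, and with 10 libraries it fell in pools 1, 3 and 4 by 0.21, 0.14 and 0.15 log2. Over all pools it was at −0.26 with 11 libraries and −0.15 with 10. Vimp, the gene for selenoprotein S, was at −0.46 ± 0.14 over all pools with 11 libraries (edgeR adjusted p = 0.11) and −0.14 ± 0.05 with 10, and in the 10-library fit it fell in pools 1, 3 and 4 by 0.14 to 0.17. In that fit Derl1 fell in pool 3 alone (−0.19 ± 0.04, edgeR adjusted p = 0.000833), and over all pools it was at −0.27 with 11 libraries and −0.11 with 10. Edem1, Derl2 and Selk, the gene for selenoprotein K, passed in no pool, and their differences over all pools changed sign, from 0.06, −0.12 and −0.26 with 11 libraries to −0.09, 0.02 and 0.05 with 10. Derl2 had all 8 pool libraries (64.4 to 70.0 CPM) above scramble replicates 2 and 3 (62.4 and 63.0) and below replicate 1 (84.9), and 12.8% of genes had all pool libraries above that pair.

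Among translocon and membrane genes Ssr1 was the clearest. It encodes the alpha subunit of the translocon-associated protein complex and lies at chr13:37966605-37994217 on the minus strand. It was at 346, 355 and 384 CPM in scramble and at 296 to 314 CPM in the pools, with a median of 301. No pool library overlapped scramble, and replicate 1 did not stand apart for this gene. The log2 fold change over all pools was −0.29 ± 0.07 with 11 libraries (edgeR adjusted p = 0.107), and with 10 it fell by 0.34 ± 0.05 (edgeR adjusted p = 0.0324); over 22 settings the adjusted p ran from 4.75e-08 to 0.18 and passed in 7. Ssr1 fell in each pool with 10 libraries, by 0.25 log2 in pool 2 and 0.34 to 0.40 in the others. With 10 libraries Sec61a1, the gene for the channel itself, fell in pools 1, 3 and 4 by 0.15, 0.27 and 0.19, and Ssr3, the gamma subunit of the same complex as Ssr1, in each pool by 0.10 to 0.16. Sec61b passed in no pool, and over all pools it went from −0.54 ± 0.21 with 11 libraries to −0.0031 ± 0.05 with 10. With 10 libraries Wfs1, the gene for the ER membrane protein wolframin, fell in pool 3 alone (−0.24 ± 0.04, edgeR adjusted p = 0.000137). Over all pools Sec61a1, Ssr3 and Wfs1 were at −0.20, −0.02 and 0.03 with 11 libraries and at −0.18, −0.14 and −0.09 with 10.

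Each pool was also set against scramble for the group as a whole, and the 4 comparisons share the scramble libraries. With 11 libraries edgeR called 1, 0, 8 and 2 members lower in pools 1 to 4, and all calls were lower, where 1.47%, 0.00707%, 6.84% and 1.99% of all genes were called lower. The 8 in pool 3 were Pdia4, Ppib, Derl3, Hyou1, Calr, Edem2, P4hb and Ssr1. Of these, the call of P4hb held in 9 of 17 settings and that of Ssr1 in 5 of 17. With 0 calls in pool 2, 3 members had an unadjusted p below 0.05 there. Leaving out 1 library of another pool gave 3 calls in pool 3 and 1 in pool 4, and leaving out 1 library of the same pool gave 0, 1 and 0 calls in pools 1, 3 and 4. With 10 libraries the counts of members lower were 24, 9, 27 and 25 (17.0%, 2.69%, 26.1% and 17.8% of all genes), and 2, 0, 2 and 2 were higher (11.8%, 1.71%, 22.7% and 13.2%). Atf6 and Ero1l were the 2 members higher in pools 1, 3 and 4. Members lower in pool 2 were Xbp1, Hyou1, Manf, Pdia3, Pdia4, Pdia6, P4hb, Ssr1 and Ssr3. Median log2 differences of the members were −0.16, −0.11, −0.25 and −0.18 in that fit, and the median over all genes was within 0.01 of 0 in each.

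**Figure D3:**
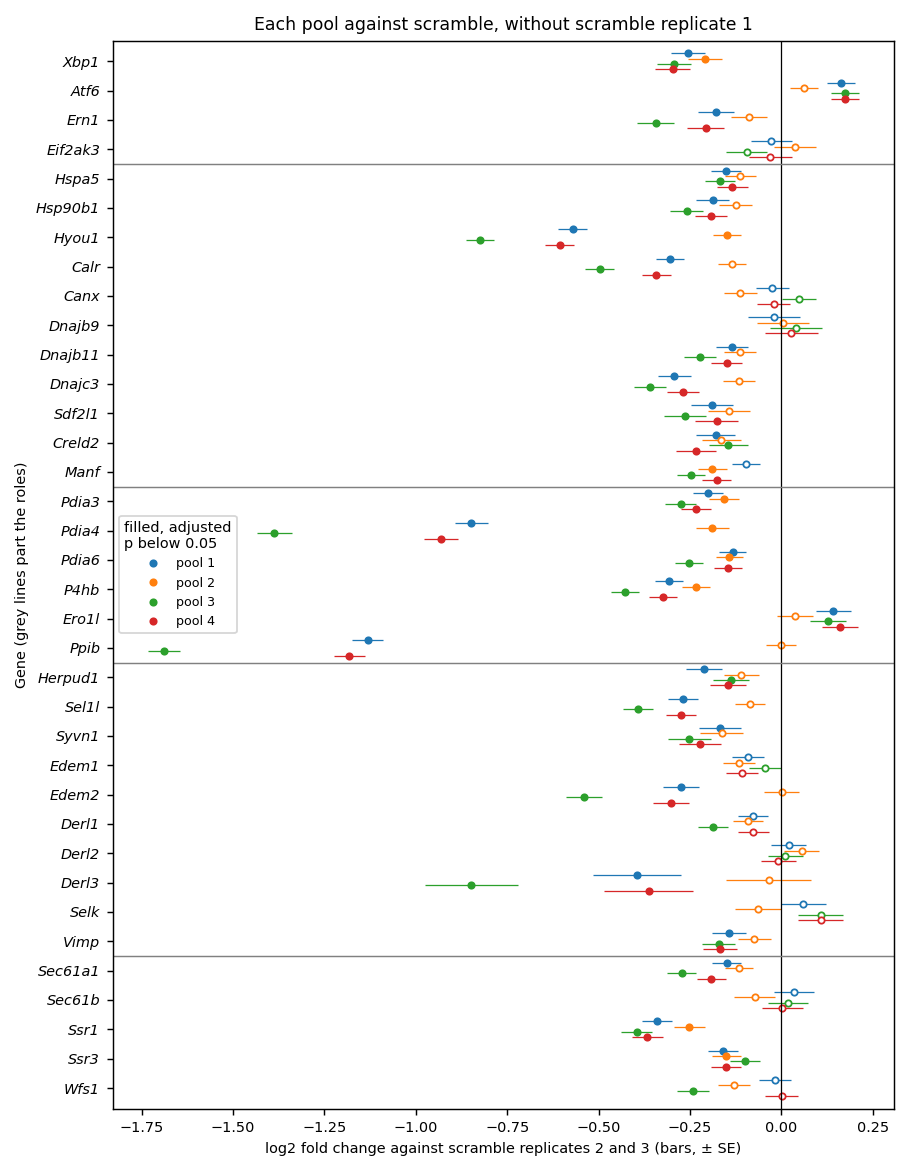
Log2 fold change (x axis) of each member in each pool against scramble replicates 2 and 3, with bars of 1 SE and filled points where the edgeR adjusted p was below 0.05, members on the y axis by role. Most points lie a little below 0, Atf6 and Ero1l lie above it, and for Ppib, Pdia4, Hyou1, Derl3 and Edem2 the pool 3 point is farthest left and the pool 2 point farthest right.

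The 4 pools differed from one another in some members, and which was clearest depended on the libraries in the fit. A single F test over the 4 pools called Pdia4 (edgeR adjusted p = 0.00408 with 11 libraries) and no other member, at 2.46% of all genes, and 4 members had an unadjusted p below 0.05. Pdia4 was not called when either pool 2 library or pool 3 replicate 1 was left out. With 10 libraries 17 members passed (42.8% of genes), and with the 8 pool libraries alone 21 passed (48.6% of genes), shares of 36 that lie near the background. In the fit of the pool libraries alone, Ppib had the smallest edgeR adjusted p (2.83e-18), ahead of Pdia4 (4.48e-15). Pool 2 exceeded the mean of the other pools in Pdia4 by 0.87 ± 0.08 log2 (edgeR adjusted p = 0.000822), a call held in each of 18 settings, and in Ppib by 1.33 ± 0.26 (edgeR adjusted p = 0.0225), a call held in 10 of 18 and lost when any 1 pool library was left out, where 3.95% of genes were higher in pool 2. Pool 3 was below the mean of the other pools in Pdia4 by 0.72 ± 0.09 (edgeR adjusted p = 0.0113), where 1.23% of genes were lower, and in no other member. The pool 3 call was held in 10 of 18 settings and lost when any 1 pool library was left out.

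The order of pools was not shared by all members. All 6 libraries of pools 1, 3 and 4 lay below both pool 2 libraries in 10 of 36 members (Pdia4, Ppib, Hyou1, Calr, Edem2, Derl3, P4hb, Sel1l, Ssr1 and Dnajc3), against 18.9% of genes. They lay above both in 7 members (Atf6, Canx, Edem1, Selk, Ero1l, Sec61b and Ssr3), against 31.9%. Both pool 3 libraries were the lowest of the 8 in 12 members, against 17.0%, and the highest in 5, against 24.9%. Akt1 itself was highest in pool 3 at 79.3 and 81.7 CPM, and at 52.7 and 55.1 CPM in pool 2. Marker genes of granulosa cells and stroma were also at other levels in these pools. Of 12 granulosa markers that reached 1 CPM, 8 were highest in pool 2 and lowest in pool 3 by the means, and the list summed to 3654, 4325, 2812 and 3543 CPM in pools 1 to 4. Of 7 such theca and stroma markers 3 had that order, and the list summed to 1376, 2155, 1081 and 1361 CPM. Among those with that order, Inha averaged 1787, 1997, 1302 and 1719 CPM in pools 1 to 4, the gap junction gene Gja1 825, 1150, 610 and 807, the activin-binding protein gene Fst 34.1, 58.2, 26.0 and 31.6, and the stromal gene Acta2 1088, 1852, 862 and 1076. Among those without it, the granulosa gene Amhr2 was lowest in pool 2, at 101, 80.6, 87.8 and 93.3 CPM, as was the stromal gene Pdgfra, at 66.1, 59.5, 65.4 and 63.5 CPM. Oocyte, endothelial and immune markers that reached 1 CPM were mostly highest in pool 3, at 2 of 2, 3 of 4 and 4 of 4. In these lists 1, 3 and 3 markers were lowest in pool 2. The share of all genes in each order is not given here. The part of these markers in the pool differences of the ER genes was not tested.

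Scramble replicate 1 differed from the other scramble libraries in most of these genes. It was higher in 21 and lower in 15 members, and more than 2-fold apart in 6: Ern1 and Atf6 were low, and Manf, Ppib, Creld2 and Sec61b were high. The differences went with transcript length. Over all genes in 5 length classes, from a median of 1226 to one of 6647 bases, the median log2 difference of that library was 0.88, 0.39, 0.02, −0.34 and −0.90, and the medians of the members in those classes were 0.97, 0.57, 0.25, −0.37 and −0.67. Single members departed from this: Ern1 (6946 bases) was at −3.04, and Ssr1, the longest at 9333 bases, at −0.09. After each member was set against the median of its own length class, the median of the members over all pools was −0.23 with 11 libraries and −0.19 with 10.

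**Figure D4:**
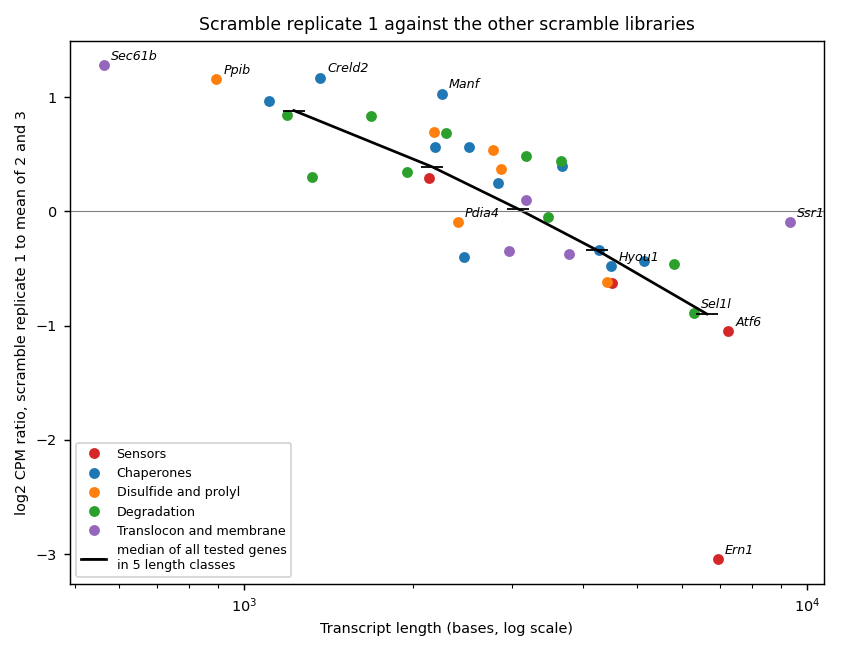
Log2 ratio of CPM in scramble replicate 1 to the mean of scramble replicates 2 and 3 (y axis) against transcript length in bases (x axis, log scale) for the 36 members, coloured by role, with the black line joining the medians of all tested genes in 5 length classes. Short members such as Sec61b and Ppib lie above 0 and long ones such as Atf6 below it, while Ern1 at −3.04 lies far under the line of all genes and Ssr1, the longest, at −0.09 lies above it.

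Differences in the pools were set beside the promoter matches. The 11 members with ERSE or ERSE-II had a median log2 difference over all pools of −0.18 with 10 libraries, with 11 of 11 below 0, and the 20 members with a window and no match had −0.17, with 16 below 0. With 11 libraries the medians were −0.27 and −0.28. The element-bearing Canx was near scramble while Derl3 fell in pool 3, and both Pdia4 and Ppib, with the largest changes, had no match in the window searched. These are descriptions of the members as listed, with no test between them.

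Neighbouring pathways gave 4 calls over all pools with 10 libraries and 0 with 11. Of 18 genes of the PERK and ATF4 branch, 1 fell, Ddit4, an inhibitor of mTORC1 (log2 −0.37 ± 0.07, edgeR adjusted p = 0.0466), and the median of the list was −0.07. In single pools, 0, 0, 5 and 1 of these 18 were called with 11 libraries. Named after their values were seen, they were Sesn2, Chac1, Ppp1r15a and Ddit4, lower in pool 3, Atf3, higher there, and Sesn2, lower in pool 4 (6.84% of all genes were lower and 4.33% higher in pool 3). With 10 libraries 6, 1, 11 and 7 fell and 0, 1, 4 and 2 rose in pools 1 to 4. Of 34 other ER folding genes 1 fell, Fkbp14, a prolyl isomerase of the ER (−0.31 ± 0.05, edgeR adjusted p = 0.0331; median −0.05). Of 28 genes of ER to Golgi export 1 fell, Sec23b, a subunit of the COPII coat (−0.42 ± 0.07, edgeR adjusted p = 0.0358; median −0.09). Of 13 ER calcium genes tested 1 fell, Atp2a2, the calcium pump SERCA2 (−0.83 ± 0.16, edgeR adjusted p = 0.0491; median −0.04). With 11 libraries the adjusted p of these 4 genes was 0.0819 for Ddit4 and 0.11 for each of the others.

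No gene passed over all pools in the remaining lists with either set of libraries. These were 13 genes of UPR processing and regulation (median 0.02 with 10 libraries), 27 other degradation genes (−0.09), 30 translocon and glycosylation genes (−0.05), 25 cytosolic chaperones (0.04) and 10 mitochondrial chaperones (0.04). The most abundant of the cytosolic chaperones, Hsp90ab1, was at 0.13 ± 0.07 log2 and the mitochondrial Hspa9 at 0.10 ± 0.08, neither past the threshold. In single pools with 10 libraries, 17.0%, 2.69%, 26.1% and 17.8% of all genes were lower in pools 1 to 4 and 11.8%, 1.71%, 22.7% and 13.2% higher. Beside these shares, 1, 3, 5 and 2 of 25 cytosolic chaperones fell and 6, 0, 11 and 5 rose. Of the 27 other degradation genes 10, 0, 16 and 10 fell and 3, 0, 4 and 3 rose. Of the 28 ER to Golgi genes 12, 4, 14 and 12 fell and 1, 0, 3 and 1 rose. With 11 libraries Trap1, a mitochondrial chaperone gene, Bak1 and Mcfd2 fell in pools 1, 3 and 4, named after their values were seen. Their log2 differences were −0.68, −0.82 and −0.66 for Trap1, −0.56, −0.87 and −0.65 for Bak1 and −0.74, −1.12 and −0.74 for Mcfd2. Of all genes, 1.47%, 6.84% and 1.99% were lower there. With 10 libraries the mitochondrial Hspd1 rose in the same pools by 0.23, 0.45 and 0.28 log2.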

How the data were processed

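RNA-seq was made per the labels from 1.3 µg of total RNA per library with a stranded mRNA kit, read as single 75-base reads. Per the submitters' processing notes, the build was mm10, the tools included TopHat2, cutadapt 1.9.1 and featureCounts 1.5.0-p2, and bcl2fastq 2.15.0, FastQC 0.11.5 and DESeq2 are named too. Settings, also that for strand in the counting, were not given in the sources used here. Raw counts per gene symbol were deposited, which the authors had not normalized (24490 genes and 92 spike-in rows). Spike-in rows took 0.268% to 0.788% of a library and were left out. The authors' deposited table holds, per the file headers, a mean signal, a log2 fold change with its error, a Wald score, p-values and their adjusted values, with no design or settings stated.

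Counts were tested with edgeR 4.0.16 (R 4.3.3, limma 3.58.1) by the quasi-likelihood F test with TMM scaling and filterByExpr, with Benjamini-Hochberg adjustment over all tested genes and a threshold of 0.05. The comparison of all pools used 2 groups. Single pools were compared with scramble, or with the average of the remaining pools, in a fit of 5 groups. SE is the log2 fold change divided by the square root of F. DESeq2 1.42.0, other filters, a replicate block and leaving out libraries were alternatives. Depth was 23851293 to 32643158 reads in genes. In pairs of 1 group chi-square per degree of freedom was at least 2.72. Libraries of a group therefore differed by more than counting error alone, and none were duplicates within sampling noise. Scripts were tested on simulated counts.

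Positions, transcript lengths and overlaps came from GENCODE M21 (GRCm38.p6), and promoter windows from RefSeq. Values in every library are given for members called over all pools, the 4 sensor genes, Hspa5, Hsp90b1, the member of each role with the smallest p of the test among pools, and members that 1 library or pool sets. From each neighbouring list up to 3 called genes are named, or else some of the 2 highest in average log2 CPM. The members, roles and lists were chosen with earlier results of these data known.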

Additional observations from a re-analysis of the deposited data

Results flagged for a closer look

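Pdia4 differed among the 4 pools by the test of the difference itself (edgeR adjusted p = 0.00408). It was higher in pool 2 than in the other pools (edgeR adjusted p = 0.000822) and lower in pool 3 than in the others (edgeR adjusted p = 0.0113). Ppib was higher in pool 2 than in the other pools (edgeR adjusted p = 0.0225). Each p is from the 11-library fit. Each of the 36 members was also searched for 1 library that lay far from the others among the 8 pool libraries, by Dixon's criterion, and 0 were found, where chance gives about 1 in 20.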

How the results depend on the processing

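Members called over all pools numbered 0 in the main fit and 17 with DESeq2 (5.44% of all genes lower). They numbered 7 when the pools were averaged in the 5-group fit (4.75% of all genes lower) and 9 without both pool 2 libraries. Alternatives chosen after seeing the data gave 30 (pools averaged, 10 libraries), 13 (DESeq2, 10 libraries) and 27 (neither pool 2 nor scramble replicate 1). In the first of these, 20.7% of all genes were lower and 15.1% higher. Leaving out 1 library gave 0 to 15. With the replicate number as a replicate block, 14 were called over all pools and 1 in pool 4. Libraries of the same number did not deviate together over all genes (r from −0.05 to 0.0785). With 1 difference per group, this does not settle whether the numbers mark shared cultures or runs. In single pools against scramble, leaving out 1 library gave 0 to 26 calls in pool 1, 0 to 9 in pool 2, 1 to 29 in pool 3 and 0 to 27 in pool 4. DESeq2 gave 5 in pool 1 and 7 in pool 4, and either other filter gave 2 in pool 1. Among pools, leaving out 1 library gave 0 to 17 for any difference, 0 to 1 for pool 1, 1 to 16 for pool 2, 0 to 16 for pool 3 and 0 to 1 for pool 4. DESeq2 gave 3, 4 and 3 for any difference, pool 2 and pool 3. The 8 pool libraries alone gave 21 for any difference (48.6% of all genes) and 2, 19, 20 and 3 for pools 1 to 4. Counts given here without a share of all genes show how calls move with the setting, and no excess over all genes. The median of the members, −0.27, ran from −0.33 to −0.18 over left-out libraries. It was −0.18 with the pools averaged, −0.17 with DESeq2 and −0.18 without pool 2, each without scramble replicate 1, and −0.19 centred on length as well. Among fits with 1 library left out and no other change, the highest count against scramble was without scramble replicate 1 in each single pool and without replicate 3 over all pools; the cause was not tested.

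Some members changed sign over all pools, none of them called with 11 libraries. Over left-out libraries Ern1 ran from −0.20 to 0.69, Eif2ak3 from −0.028 to 0.28, Canx from −0.026 to 0.20, Dnajc3 from −0.26 to 0.0014, Sel1l from −0.25 to 0.15, Edem1 from −0.090 to 0.17, Derl2 from −0.19 to 0.020, Selk from −0.43 to 0.052, Ssr3 from −0.14 to 0.065 and Wfs1 from −0.094 to 0.12. Without scramble replicate 1, and with the pools averaged, DESeq2 or no pool 2 in that order, Ern1 was at −0.20, −0.20 and −0.24, Eif2ak3 at −0.029, −0.025 and −0.047, Sel1l at −0.26, −0.25 and −0.31, and Edem1 at −0.090, −0.086 and −0.077. In the same order Derl2 was at 0.019, 0.023 and 0.012, Selk at 0.053, 0.056 and 0.095, and Wfs1 at −0.097, −0.090 and −0.078. Canx was at −0.027 and −0.023 in the first pair of these, and Sec61b at 0.023 in the last. With the replicate block Dnajc3 was at 0.0063 and Ssr3 at 0.067. Sel1l was at −0.0028 with the pools averaged over 11 libraries and −0.058 without both pool 2 libraries.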
